A study of Rattus norvegicus with 6 samples.

Results

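The actomyosin, contractile and intermediate filament genes are described here in rat endometrial epithelial organoids (rEEOs) and rat bone marrow mesenchymal stem cells (rBMSCs). Members are the rows whose gene symbol belongs to this group and whose counts summed to at least 10 over the 6 libraries. Of 84 rows with a matching symbol, 73 reached this minimum, out of 13728 rows in the table, and the other 11 were under it. Enough counts for a test (at least 10 in at least 3 libraries) were found for 67 members, and 14 of these reached that number in one cell type only (11 in rBMSCs, 3 in rEEOs). Bulk RNA-seq had been performed on 3 libraries of each cell type. The rEEOs were grown in Matrigel from glandular fragments of uteri of female SD rats aged 5 weeks, in an expansion medium that holds the ROCK inhibitor Y27632 and the TGF-beta receptor inhibitor A83-01. By the study's methods, GFP-labeled rats were kept for the tracking of transplanted cells. The rBMSCs were purchased RFP-labeled cells grown attached in medium with serum. Cell type, medium and culture geometry therefore differ together and cannot be told apart, and nothing says that the 3 libraries of a group came from separate animals or cultures, so p-values measure only the spread between these libraries.

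Actin filaments are built from a small family of near-identical actins, are lined by tropomyosins, and are pulled past each other by bipolar filaments of myosin II, whose heavy chains carry the motor and whose light chains set its activity. Cells of mesenchymal and muscle origin use this machinery in stress fibres and contractile bundles, with vimentin, desmin and nestin as intermediate filaments. Glandular epithelium instead holds much of its actin in a belt at the cell junctions and in the bundled cores of apical microvilli. Serum response factor (SRF), with the cofactors myocardin and the myocardin-related transcription factors, drives many of these genes through a DNA motif named the CArG box.

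The labels were checked against marker genes. Summed over 7 epithelial markers, the level was 2.43 to 2.85 TPM (the deposited level per transcript length) in rBMSCs and 4514 to 5077 TPM in rEEOs, and 5 of the 7 (Epcam, Cdh1, Krt19, Cldn4 and Cldn7) were at 0 in rBMSCs. Summed over 7 mesenchymal markers, it was 29042 to 31602 TPM in rBMSCs and 0.54 to 1.28 TPM in rEEOs. Col1a1 (mean 18818 TPM) and Col3a1 (10112 TPM) made up most of the rBMSCs sum. Among the 7, 6 were lower in rEEOs, and Nt5e, at a mean of 1.02 TPM in rBMSCs, was not called (edgeR, adjusted p = 0.0507). Libraries held 10457958 to 15421501 counts. In rEEOs, 3 counts in a library correspond to between 0.181 and 0.262 CPM (counts scaled to library size), and levels near this are undecided at this depth.

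SRF and the CArG box are shown first, because the SRF gene and 4 other members hold the box close to their start. Promoter windows of 300 bases (250 before to 50 after the start, RefSeq, build GRCr8) were found for 66 of the 73 members. A strict CArG box, which reads as a box on both strands, was present in 5 of these (7.58%), compared to 451 of all 27457 promoters of the table (1.64%) and 99 of 7776 promoters of genes tested (1.27%). The last set is not like for like. The 66 include 5 members that were not tested, 1 of them (Acta1) with a box. Members were matched by gene ID, but the genes tested by symbol, which found 7776 of the 10607. The windows of Srf and Actg1, which were not called between the cell types, and of Cnn2, which was lower in rEEOs, are printed as examples. Capitals mark the CArG boxes.
Srf, chr9:21923826-21924125, plus strand: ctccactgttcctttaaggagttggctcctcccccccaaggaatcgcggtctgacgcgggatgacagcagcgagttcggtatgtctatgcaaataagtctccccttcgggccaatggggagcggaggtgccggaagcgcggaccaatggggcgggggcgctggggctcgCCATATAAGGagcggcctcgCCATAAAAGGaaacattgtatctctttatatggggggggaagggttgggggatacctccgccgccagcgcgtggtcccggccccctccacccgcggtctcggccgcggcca
Actg1, chr10:106120902-106121201, minus strand: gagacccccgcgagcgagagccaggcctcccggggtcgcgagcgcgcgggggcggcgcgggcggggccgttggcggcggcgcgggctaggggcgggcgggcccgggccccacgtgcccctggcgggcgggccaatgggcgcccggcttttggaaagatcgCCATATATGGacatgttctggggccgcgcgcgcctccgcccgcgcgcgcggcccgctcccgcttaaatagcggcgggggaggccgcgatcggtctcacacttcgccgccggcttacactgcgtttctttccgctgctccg
Cnn2, chr7:10370263-10370562, minus strand: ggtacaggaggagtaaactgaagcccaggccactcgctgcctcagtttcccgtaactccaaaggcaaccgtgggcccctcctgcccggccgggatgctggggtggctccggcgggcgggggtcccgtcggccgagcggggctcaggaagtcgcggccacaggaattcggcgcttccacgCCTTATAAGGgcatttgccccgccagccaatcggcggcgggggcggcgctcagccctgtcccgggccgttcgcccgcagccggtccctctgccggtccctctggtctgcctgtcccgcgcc
The window of Srf holds a pair of boxes, the first at position -81 from the start, and those of Actg1 and Cnn2 hold a box at -90 and -71. Acta1 and Myo1e make up the 5. Among matched members that were lower in rEEOs, 2 of 41 windows held a box, against 2 of 10 of the members with no call and 0 of 10 of those that were higher. The window of Acta2 held no strict match, which says only that these letters are not in these 300 bases.

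As a group, the members were lower in rEEOs. Past an adjusted p of 0.05 (edgeR's quasi-likelihood test, Benjamini-Hochberg over all 10607 genes tested), 46 of the 67 tested members fell and 10 rose, which is 68.7% and 14.9%. Over all genes tested, 30.2% fell and 33.3% rose. Of the 46, 11 reached the minimum of counts in rBMSCs alone, and of the 10, 3 in rEEOs alone, so that these could be tested only because they were high there. Over all genes tested, this held for 618 of the 3199 that fell and 1017 of the 3529 that rose. Differential expression, with an absolute log2 fold change above 2 in addition, was called for 34 members lower (50.7%) and 7 higher (10.4%), against 13.3% and 16.3% of all genes. The same 11 and 3 members are among these 34 and 7. The members' median log2 fold change of rEEOs over rBMSCs was -2.21, compared to 0.08 over all genes. Members at 0 in one cell type stay on the same side of this median at their bound. Putting them there could therefore not move it. In log2(CPM + 1), the libraries of the cell types did not overlap for 48 members lower and 9 higher in rEEOs, against 35.9% and 36.9% of all genes. Together the members took 5.49% ± 0.19 (SD, n = 3) of the TPM held in rBMSCs and 1.37% ± 0.28 (SD, n = 3) in rEEOs (two-sided exact permutation test, p = 0.1, the smallest that 3 against 3 libraries allow). Scaling by library size alone left 41 members lower and 12 higher. It moved the split over all genes from 3529 higher and 3199 lower to 4838 higher and 2189 lower, and the median of all genes from 0.08 to 0.46, so the direction of changes smaller than this shift depends on the scaling. Without rBMSCs replicate 1, 6 members passed the adjusted p as higher, compared to 10.

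**Figure D1:**
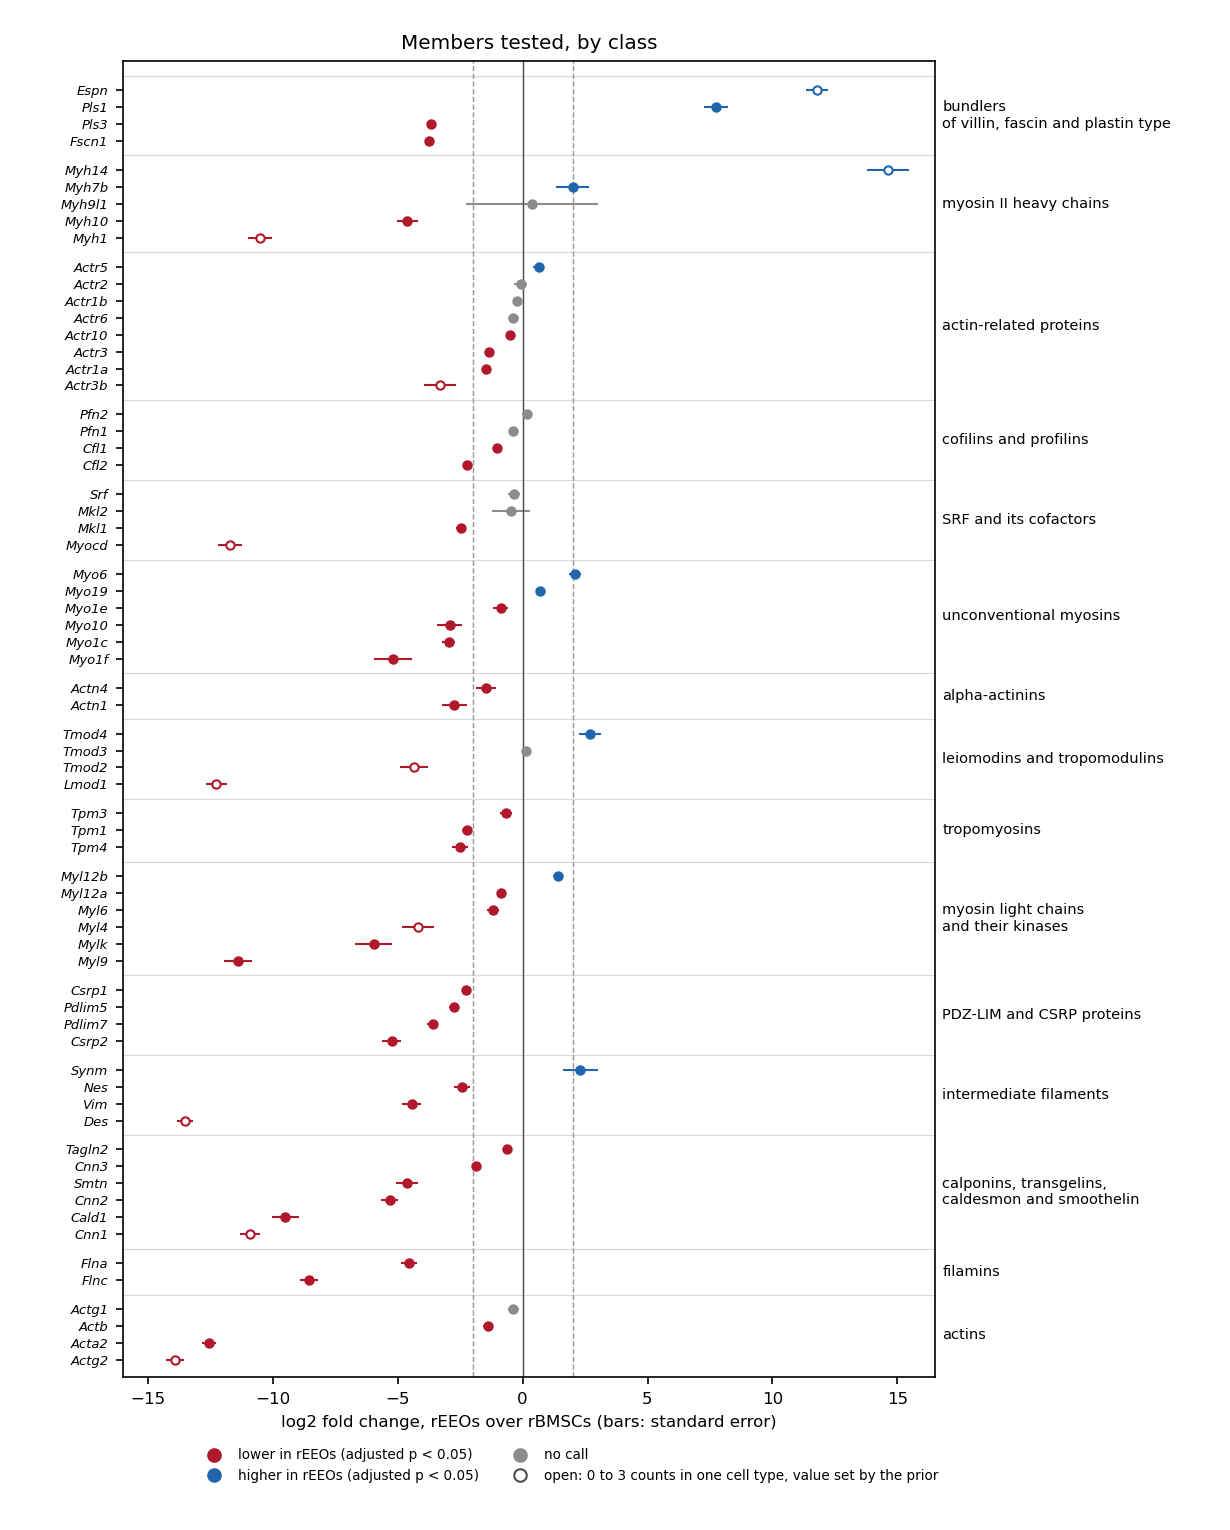
Log2 fold change of rEEOs over rBMSCs (x axis) for 66 of the 67 tested members, grouped by class, with the standard error as a bar and dashed lines at -2 and 2. Red points passed the adjusted p of 0.05 as lower in rEEOs (46), blue as higher (10) and grey passed in neither direction; open points had 0 to 3 counts summed over one cell type, so their position depends on the prior count of the fit and is no measured fold.

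Among the actins, the muscle isoforms were at or near 0 in rEEOs, whereas the cytoplasmic isoforms were abundant in both cell types. Values after ± are SDs over the 3 libraries, and fold changes are log2 values of rEEOs over rBMSCs from the edgeR fit. Acta2, the smooth muscle alpha-actin of stress fibres in contractile stromal cells, was at 5584, 6332 and 6269.9 TPM in rBMSCs and 1.08, 0.79 and 0.65 TPM in rEEOs. The groups lie more than 3 orders of magnitude apart, and Acta2 fell by 12.56 on the log2 scale (SE 0.29, adjusted p = 4.02e-06). Actg2, the enteric smooth muscle gamma-actin, was at 155, 184 and 178 TPM in rBMSCs and had no count in any rEEOs library, which makes it at least 625-fold higher in rBMSCs (against 3 counts in each library, adjusted p = 2.33e-05). Actb, the cytoplasmic beta-actin of every cell, was at 7927, 8142 and 8459.6 TPM in rBMSCs and 3063, 2420.4 and 2348 TPM in rEEOs, and fell by 1.39 (SE 0.18, adjusted p = 0.000744). Actg1, the cytoplasmic gamma-actin, was at 1763, 2052 and 1883 TPM and 1244, 1068 and 1338 TPM. Its TPM values do not overlap between the cell types, but on the scaled CPM of the test they do, and the fold change of -0.37 (SE 0.21) was not called (adjusted p = 0.157). By limma on log2(TPM + 0.1), the same gene was lower in rEEOs (-0.65, adjusted p = 0.00574). Some Actg1 counts were not whole, so reads shared with near-identical actin copies could have been split. Some counts of Smtn and Pfn2 were not whole either. Acta1, the skeletal muscle actin, had between 3 and 8 counts in rBMSCs and 0 in rEEOs and was not tested.

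Within a library, the share of a family's TPM does not depend on scaling between libraries. Acta2 made up 37.1% ± 0.868 (SD, n = 3) of the TPM of the actins held, without Actc1, in rBMSCs and 0.022% ± 0.0038 in rEEOs. The share of Actb was 50.2% ± 1.34 in rBMSCs and 68.1% ± 3.87 in rEEOs, and that of Actg1 was 11.6% ± 0.564 and 31.9% ± 3.88. A total of 24 such shares in 9 families were compared between the cell types, and each gave the smallest p that the two-sided exact permutation test over 3 against 3 libraries allows (0.1, also after Benjamini-Hochberg adjustment).

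**Figure D2:**
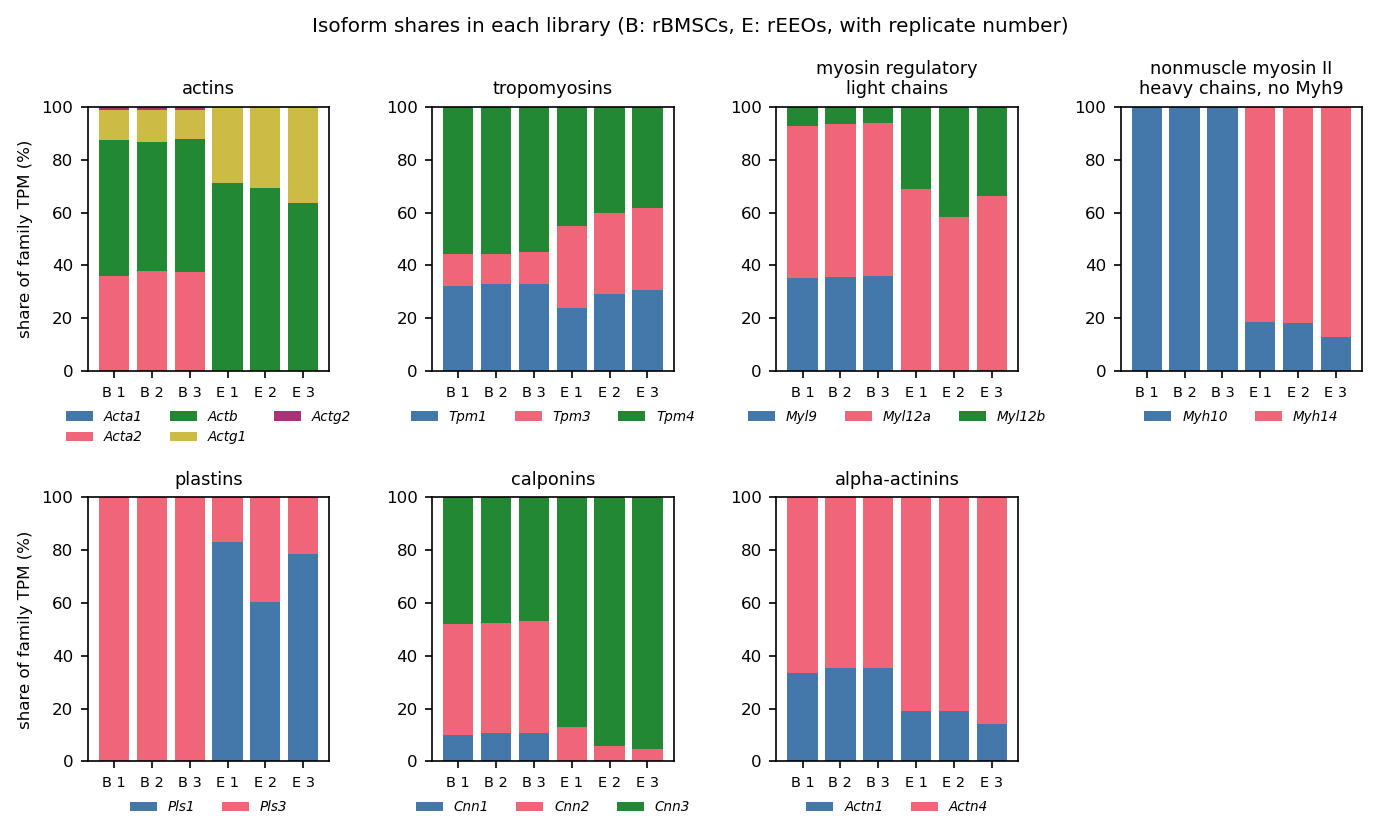
Share of family TPM in percent (y axis) held by each isoform in each of the 6 libraries (x axis, B for rBMSCs and E for rEEOs) for 7 families, as stacked bars. In every rEEOs library Acta2, Myl9 and Cnn1 are close to 0, and Myh14 and Pls1, close to 0 in rBMSCs, hold the larger part of their families. The pair of myosin heavy chains leaves out Myh9, the tropomyosins leave out Tpm2 and the actins Actc1.

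Of the 3 tropomyosins held by the table Tpm4 and Tpm1 fell in rEEOs, and the fall of Tpm3 lay at the threshold. Tropomyosins wind along the filament and set which myosins and severing proteins reach it. Tpm4 was at 1971, 1982 and 2145 TPM in rBMSCs and 565, 181 and 216 TPM in rEEOs (-2.50, SE 0.32, adjusted p = 0.000732). Tpm1 was at 1143, 1178 and 1279.9 TPM and 302, 131 and 174 TPM (-2.24, SE 0.18, adjusted p = 0.000106). Replicate 1 was the highest rEEOs library for both, and still under every rBMSCs library. Tpm3 was at 428, 411 and 475 TPM and 392, 139.9 and 174 TPM (-0.66, SE 0.24, adjusted p = 0.0475). The call of Tpm3 was lost without any one of the 3 rBMSCs libraries or of rEEOs replicates 2 and 3 (adjusted p = 0.102 to 0.134). It was also lost under both other filters on counts, both limma fits and the replicate block (adjusted p = 0.051 to 0.0556), with library size only (-0.26, adjusted p = 0.4) and in a test against a fold change of 2, so 4 of 16 settings kept it. Of the summed TPM of these 3 tropomyosins, without Tpm2, Tpm3 held 11.9% ± 0.353 in rBMSCs and 31.0% ± 0.154 in rEEOs (SD, n = 3). Tpm4 held 55.4% ± 0.336 and 41.1% ± 3.42. Tpm2, Myh11, Tagln and Actc1, further genes of the contractile group, were not analysed here.

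The class of calponins, transgelins, caldesmon and smoothelin had 6 members, and all 6 fell. These proteins sit on actin filaments and restrain or stabilise the actomyosin interaction, with calponin 1, caldesmon and smoothelin known from smooth muscle. Cald1 was at 848, 732 and 920.1 TPM in rBMSCs and 1.73, 0.35 and 1.08 TPM in rEEOs and fell by 9.51 (SE 0.54, adjusted p = 2.81e-05). For Cnn1, 113, 128 and 129 TPM stood against 0, 0.07 and 0.07 TPM. Its rEEOs libraries held 0, 1 and 1 counts, a ratio of 2286 with an exact Poisson 95% interval of 633 to 18879, which covers counting error only. Cnn2 was at 471, 489 and 499 TPM and 18.2, 7.76 and 5.94 TPM (-5.33, SE 0.33, adjusted p = 3.68e-05), and Cnn3, the isoform found outside muscle, at 539.7, 557 and 550.4 TPM and 121, 129.7 and 126 TPM (-1.85, SE 0.20, adjusted p = 0.000351). Of calponin TPM, Cnn3 held 47.4% ± 0.668 in rBMSCs, beside 42.0% ± 0.352 for Cnn2, and 92.2% ± 4.61 in rEEOs (SD, n = 3). Tagln2, the transgelin found in many cell types, had the smallest fall of the class, from 677 ± 34.9 TPM to 364 ± 51.6 TPM (SD, n = 3; -0.64, SE 0.13, adjusted p = 0.00566). Smtn fell from 159.6 ± 5.84 TPM to 5.89 ± 4.56 TPM (-4.63, SE 0.43, adjusted p = 0.000197). The call of Tagln2 was lost with library size only (adjusted p = 0.114).

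**Figure D3:**
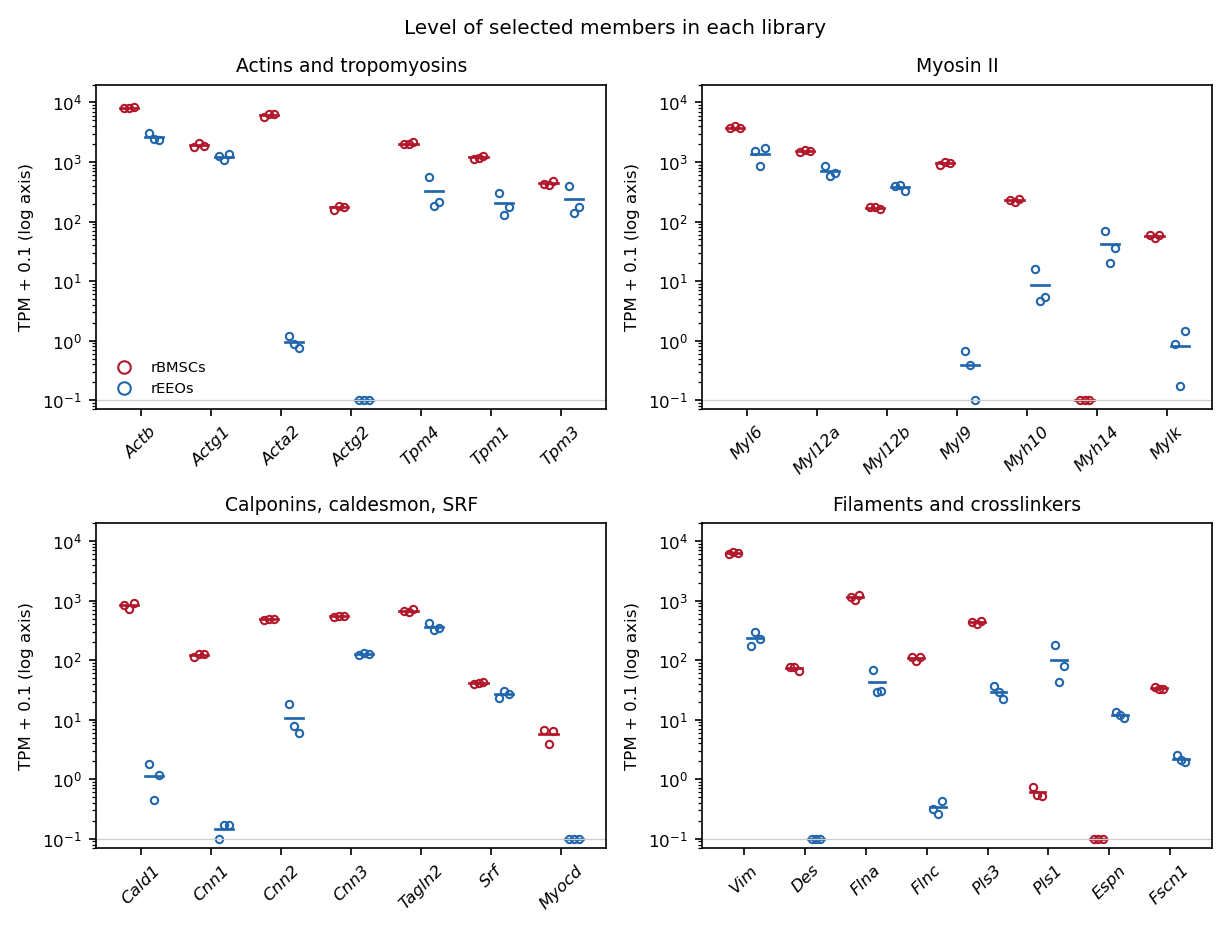
TPM plus 0.1 on a log axis (y axis) for selected members (x axis), with a circle for each of the 3 libraries of rBMSCs (red) and rEEOs (blue) and a line at the mean. Acta2, Actg2, Myl9, Cald1, Cnn1, Myocd, Des and Flnc lie at or under 2 TPM in every rEEOs library, Myl12b, Myh14, Pls1 and Espn are higher in rEEOs, and the circles of rEEOs are more spread than those of rBMSCs for most genes.

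The myosin II light chains were divided. Regulatory light chains take the activating phosphate, which myosin light chain kinase (Mylk) adds. Myl9, the regulatory chain of smooth muscle and of stress fibres, was at 886, 980.1 and 965 TPM in rBMSCs and 0.58, 0.29 and 0 TPM in rEEOs and fell by 11.40 (SE 0.57, adjusted p = 1.78e-05). Myl12a, a nonmuscle regulatory chain, was at 1443, 1585 and 1539 TPM and 859, 581 and 644 TPM (-0.88, SE 0.14, adjusted p = 0.00168). Myl12b, its close paralog, was the one member of the 6 in this class that rose, from 177, 173 and 165 TPM to 387, 414 and 328 TPM (1.42, SE 0.19, adjusted p = 0.00098). No library of one cell type reached those of the other for either gene, in opposite directions. Of the summed TPM of these 3 chains, Myl9 held 35.8% ± 0.397 in rBMSCs and 0.025% ± 0.0235 in rEEOs, and Myl12b 6.52% ± 0.467 and 35.5% ± 5.48 (SD, n = 3). Myl6, the essential light chain shared by nonmuscle and smooth muscle myosin, fell from 3786 ± 194 TPM to 1372 ± 457 TPM (-1.19, SE 0.25, adjusted p = 0.00617). Mylk was at 59.4, 52.8 and 58.2 TPM in rBMSCs and 0.77, 0.07 and 1.34 TPM in rEEOs (-5.96, SE 0.74, adjusted p = 0.000654). Myl4, an atrial and embryonic chain, was low in both, with 3 counts summed over rEEOs, and lower there by a ratio of 20.3 (exact Poisson 95% interval 6.95 to 98.4).

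The nonmuscle myosin II heavy chains Myh10 and Myh14 moved in opposite directions. Myh10 (nonmuscle myosin IIB) was at 231, 211 and 241 TPM in rBMSCs and 15.7, 4.45 and 5.27 TPM in rEEOs (-4.62, SE 0.41, adjusted p = 0.000157). Myh14 (nonmuscle myosin IIC), known from epithelia, had no count in any rBMSCs library and was at 69.0, 19.8 and 36.1 TPM in rEEOs, with replicate 1 the highest and replicate 2 the lowest. It was at least 1050-fold higher in rEEOs (against 3 counts in each library, adjusted p = 0.000224). Of the TPM of these 2 genes, Myh14 held 83.5% ± 3.29 in rEEOs (SD, n = 3) and 0% in rBMSCs. The third nonmuscle heavy chain, Myh9, is by gene ID the row named Myh9l1, which was listed at 0, 69.5 and 0 TPM in rBMSCs and at 0, 29.7 and 40.5 TPM in rEEOs. Since this ubiquitous gene was listed at 0 in 3 of the 6 libraries, its level was not described. Of the sarcomeric chains, Myh1 was at 2.83, 2.99 and 2.99 TPM in rBMSCs with no count in rEEOs (at least 59.8-fold higher in rBMSCs, adjusted p = 0.000108), although its counts were not whole and reads could be shared with Myh2 and Myh8, which lay at or under 0.14 TPM and were not tested. Myh7b was at 0.69, 0.63 and 0.68 TPM in rBMSCs and 0.69, 3.37 and 2.07 TPM in rEEOs (2.00, SE 0.66, adjusted p = 0.0354). The groups of Myh7b overlap in CPM, and its call was lost without any one library other than rEEOs replicate 1 (adjusted p = 0.0842 to 0.1).

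The unconventional myosins, which carry cargo or tie membrane to actin, had 2 of 6 members higher and 4 lower. Myo6, the motor that walks to the pointed end and works at the base of microvilli, rose from 9.26, 8.45 and 9.47 TPM to 54.4, 22.2 and 25.8 TPM (2.09, SE 0.23, adjusted p = 0.000389). Myo1c, a membrane-bound class I motor, was at 489.6, 453 and 499 TPM in rBMSCs and 90.8, 36.2 and 38.1 TPM in rEEOs (-2.96, SE 0.27, adjusted p = 0.000177). For Myo10, the motor of filopodia, the values were 48.2, 40.6 and 47.2 TPM and 11.4, 2.13 and 3.05 TPM (-2.93, SE 0.51, adjusted p = 0.00283). Replicate 1 was again the highest rEEOs library for all 3 genes. Myo1f fell from 2.46 ± 0.390 TPM to 0.05 ± 0.056 TPM (-5.21, adjusted p = 0.00131) and Myo1e from 29.6 ± 1.47 TPM to 14.4 ± 9.37 TPM (-0.88, adjusted p = 0.0373). Myo19, a mitochondrial motor, was at 5.93, 5.78 and 6.92 TPM and 11.6, 6.29 and 7.12 TPM, which overlap, and was higher in the test on counts (0.69, SE 0.16, adjusted p = 0.00884). The call of Myo1e was lost without any one library other than rEEOs replicate 1 (adjusted p = 0.0797 to 0.109), with the length trend removed (-0.57, adjusted p = 0.0501) and with library size only (-0.48, adjusted p = 0.22). That of Myo19 was lost without rBMSCs replicate 1 (adjusted p = 0.0532) and by limma on log2(TPM + 0.1) and log2(TPM + 1) (0.37 and 0.34, adjusted p = 0.289 and 0.274).

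Bundling proteins, which tie filaments into the parallel cores of microvilli and filopodia, moved in both directions, with 2 of the 4 tested members higher and 2 lower. Pls1, the plastin of intestinal and other brush borders, was at 0.65, 0.44 and 0.42 TPM in rBMSCs and 179, 43.4 and 80.1 TPM in rEEOs (7.73, SE 0.48, adjusted p = 3.78e-05). Pls3, the plastin of mesenchymal and many other cells, was at 438, 406 and 449 TPM and 36.2, 28.6 and 21.9 TPM (-3.66, SE 0.18, adjusted p = 1.73e-05). Pls1 thus went from 0.117% ± 0.0284 of plastin TPM in rBMSCs to 74.0% ± 12.1 in rEEOs (SD, n = 3). Espn, espin of microvilli and stereocilia, had no count in rBMSCs and 13.5, 11.98 and 10.6 TPM in rEEOs, at least 147-fold higher in rEEOs (adjusted p = 6.12e-05). Fscn1, the fascin of filopodia and migrating cells, was at 35.1, 32.6 and 32.8 TPM and 2.45, 2.04 and 1.82 TPM (-3.74, SE 0.16, adjusted p = 1.11e-05). Vil1, the villin of intestinal microvilli, had 1 count over rBMSCs and 7, 0 and 3 counts in rEEOs and was not tested, nor was Fscn3, which lay at or under 0.66 TPM in every library.

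The filamins Flna and Flnc and the alpha-actinins Actn1 and Actn4 fell in rEEOs. Filamins link filaments into meshes and connect them to the membrane. Flna was at 1152, 1009 and 1241 TPM in rBMSCs and 69.3, 29.5 and 30.4 TPM in rEEOs (-4.55, SE 0.30, adjusted p = 4.74e-05), and Flnc, the muscle filamin, at 111, 97.8 and 112 TPM and 0.22, 0.16 and 0.33 TPM (-8.55, SE 0.36, adjusted p = 1.1e-05). Actn1, an alpha-actinin of stress fibres, was at 413, 406 and 459 TPM and 122, 26.8 and 28.8 TPM (-2.75, SE 0.50, adjusted p = 0.00341). Actn4, its paralog at junctions and in lamellipodia, was at 825, 740.0 and 837 TPM and 517, 113 and 174 TPM (-1.46, SE 0.41, adjusted p = 0.0205). The call of Actn4 was lost without any one rBMSCs library or without rEEOs replicate 3 (adjusted p = 0.0538 to 0.0736) and with library size only (adjusted p = 0.0721). Its share of alpha-actinin TPM was 65.3% ± 1.19 in rBMSCs and 82.5% ± 2.86 in rEEOs (SD, n = 3). The PDZ-LIM and CSRP proteins, adaptors on alpha-actinin and stress fibres, had 4 tested members and all 4 fell: Pdlim7 (-3.60), Pdlim5 (-2.73), Csrp1 (-2.25) and Csrp2 (-5.25), with adjusted p between 3.74e-05 and 6.98e-05. Their means ran from 50.6 ± 7.52 to 585 ± 24.2 TPM in rBMSCs and from 1.14 ± 0.826 to 106 ± 35.1 TPM in rEEOs (SD, n = 3), and Pdlim3, at or under 0.33 TPM, was not tested.

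Of the 4 intermediate filament members 3 fell and 1 rose. Vim, the vimentin of mesenchymal cells, was among the most abundant members in rBMSCs, at 5982, 6567 and 6375 TPM, and was at 171, 297 and 227 TPM in rEEOs (-4.45, SE 0.40, adjusted p = 0.000158). Of the 7 mesenchymal markers in the same rEEOs libraries, Pdgfrb and Thy1 had no count, and Pdgfra, Col1a1 and Col3a1 were at most 0.16 TPM. Eng was at 0.35, 0.71 and 0.59 TPM there and Nt5e at 0.12, 0.03 and 0.44 TPM. The paper's staining found no VIM protein in rEEOs. Which cells the Vim reads came from was not tested. Des, the desmin of muscle, was at 75.8, 75.2 and 66.5 TPM in rBMSCs and had no count in rEEOs (at least 476-fold higher in rBMSCs, adjusted p = 2.26e-05). Nes, the nestin of progenitor cells, was at 5.35, 5.63 and 5.85 TPM and 1.38, 0.93 and 0.41 TPM (-2.43, SE 0.33, adjusted p = 0.001). Synm, the synemin that joins vimentin or desmin filaments, was low in both, at 0.25, 0.15 and 0.36 TPM in rBMSCs and 2.72, 0.45 and 0.4 TPM in rEEOs (2.31, SE 0.71, adjusted p = 0.028). Its mean in rEEOs rests mostly on replicate 1, without which the log2 fold change was 1.23 (adjusted p = 0.0188), and its call was lost without any one rBMSCs library (adjusted p = 0.0605 to 0.0947).

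Proteins that assemble and cut filaments had smaller changes than most classes, with a median log2 fold change of -0.71 over the 4 cofilins and profilins. The cofilins sever old filaments and the profilins feed actin monomers to growing ends. Cfl1 was at 1381, 1516 and 1491 TPM in rBMSCs and 740.3, 512 and 548 TPM in rEEOs (-1.04, SE 0.14, adjusted p = 0.000843), and the muscle isoform Cfl2 fell from 67.7 ± 3.42 TPM to 12.4 ± 2.24 TPM (SD, n = 3; -2.21, SE 0.12, adjusted p = 2.18e-05). Pfn1 was at 1758, 1958 and 1837 TPM and 1333, 1051 and 1139.9 TPM (-0.38, SE 0.15) and was not called by edgeR (adjusted p = 0.0643), though it was by DESeq2 (adjusted p = 0.0154). Pfn2 was at 96.2, 88.0 and 97.2 TPM and 80.2, 79.5 and 100.1 TPM, with overlapping groups (0.17, SE 0.21, adjusted p = 0.503). Its sign turned by limma on log2(TPM + 1) (-0.12), and it was called higher without rEEOs replicate 1 (0.38, adjusted p = 0.0166) and with library size only (0.54, adjusted p = 0.0445).

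Actin-related proteins form the branching Arp2/3 complex, dynactin and chromatin complexes, and 4 of the 8 fell, 1 rose and 3 were not called. Actr3, an Arp2/3 subunit, was at 387, 367 and 398 TPM in rBMSCs and 176, 102 and 108 TPM in rEEOs (-1.36, SE 0.14, adjusted p = 0.00027). Actr2, its partner in the complex, was at 265, 225 and 275 TPM and 373, 98.3 and 109 TPM, where replicate 1 stands above and the other two under all rBMSCs libraries. It was not called (-0.07, SE 0.26, adjusted p = 0.814), but without rEEOs replicate 1 it was lower (-0.38, adjusted p = 0.0129). The dynactin subunit Actr1a fell from 149 ± 1.03 TPM to 47.5 ± 20.3 TPM (-1.45, SE 0.18, adjusted p = 0.000643), and Actr10 from 100.4 ± 4.35 TPM to 58.7 ± 9.03 TPM (-0.53, SE 0.12, adjusted p = 0.00971). Actr5, of chromatin remodelling, was the one that rose, from 6.08 ± 0.256 TPM to 7.89 ± 0.855 TPM (0.65, SE 0.21, adjusted p = 0.036), and its call was lost without any one library other than rEEOs replicate 1 (adjusted p = 0.0578 to 0.13). By limma on log2(TPM + 0.1) Actr5 was not called either (0.37, adjusted p = 0.141). The call of Actr10 was lost with library size only (-0.15, adjusted p = 0.325) and without rBMSCs replicate 2 (adjusted p = 0.0514). Actr3b had 3 counts summed over rEEOs and was lower by a ratio of 11.0 (exact Poisson 95% interval 3.77 to 53.4), and Actr1b (-0.24) and Actr6 (-0.38) were not called by edgeR, though limma on log2(TPM + 0.1) called both lower (-0.49 and -0.67, adjusted p = 0.0295 and 0.00976).

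Leiomodins start and tropomodulins cap filaments at the pointed end. Lmod1, of smooth muscle, was at 50.3, 48.2 and 53.9 TPM in rBMSCs against 1 count in all of rEEOs, a ratio of 6763 (exact Poisson 95% interval 1214 to 267129). Tmod3, the tropomodulin found in most cells, was at 92.1, 77.4 and 99.1 TPM and 107, 59.9 and 81.2 TPM, overlapping and not called (0.12, SE 0.15, adjusted p = 0.518), but with library size only it was higher (0.50, adjusted p = 0.0323). Tmod4, known from skeletal muscle, was low and rose from 0.58, 0.8 and 0.75 TPM to 2.79, 4.45 and 3.86 TPM (2.69, SE 0.44, adjusted p = 0.00216). Tmod2, a neuronal isoform, fell to 2 counts over rEEOs, with a ratio of 24.1 (exact Poisson 95% interval 6.66 to 199).

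The SRF gene was not called between the cell types, and 2 of its 3 cofactors fell in rEEOs. Srf was at 39.8, 40.9 and 43.6 TPM in rBMSCs and 23.3, 30.5 and 26.7 TPM in rEEOs. These TPM do not overlap, but the scaled CPM do, and the fold change of -0.35 (SE 0.23) was not called (adjusted p = 0.228), whereas limma on log2(TPM + 0.1) called it (-0.63, adjusted p = 0.0108). Myocd, myocardin, the smooth muscle cofactor, was at 6.68, 3.77 and 6.26 TPM in rBMSCs with no count in rEEOs (at least 136-fold higher in rBMSCs, adjusted p = 8.81e-05). Mkl1, which is Mrtfa by gene ID, was at 37.3, 34.8 and 36.4 TPM and 9.08, 4.73 and 4.08 TPM (-2.46, SE 0.20, adjusted p = 0.000114). Mkl2, which is Mrtfb, was at 4.03, 2.08 and 4.45 TPM and 5.89, 0.91 and 0.52 TPM and was not called (-0.47, SE 0.77, adjusted p = 0.613), but was lower without rEEOs replicate 1 (-1.85, adjusted p = 0.00932). Of the 5 members with a CArG box, Cnn2 fell, Srf and Actg1 were not called, Myo1e fell and Acta1 was not tested.

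Libraries of rEEOs differed more among themselves than those of rBMSCs. For the members tested, the SD of log2(CPM + 1) had a median of 0.081 in rBMSCs and 0.325 in rEEOs, close to the 0.088 and 0.340 over all genes tested. Replicate 1 of rEEOs stood apart from the other two by transcript length. Of 54 members whose rEEOs mean reached 1 CPM, 30 were higher in replicate 1, by a median of 0.24 over all 54. For the 28 with a transcript longer than that of the median gene, the median was 0.56, and for the 26 shorter ones -0.15. Over 9735 genes the corresponding medians were 0.33 and -0.28. Mkl2 (1.95), Actn1 (1.64) and Myo10 (1.63) were among the members that lay furthest above the other replicates, and Vim (-1.09) and Myh7b (-2.11) among those furthest under. Actn1, Myo10 and Vim went with the length trend (lengths of 1.20, 3.53 and 0.68 relative to the median gene). Mkl2 (0.83) and Myh7b (2.66) went against it. In a fit with the length trend removed from each library, 34 members were lower and 7 higher at the differential thresholds, the same counts as without it.

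**Figure D4:**
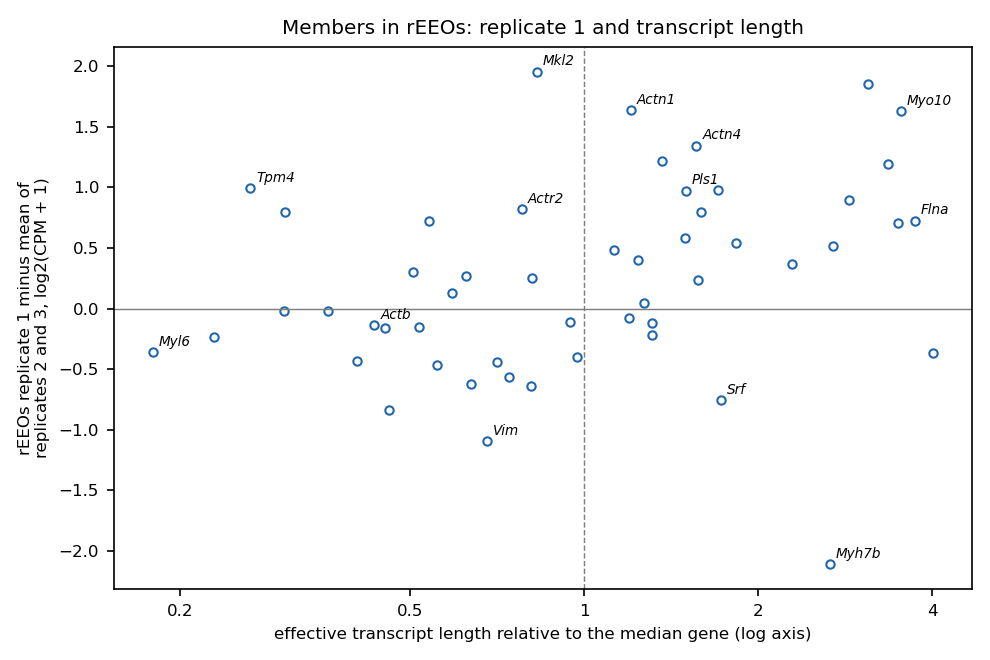
Difference in log2(CPM + 1) between rEEOs replicate 1 and the mean of replicates 2 and 3 (y axis) against effective transcript length relative to the median gene (x axis, log scale), 1 circle for each member described whose rEEOs mean reached 1 CPM, without Myh9l1. Most long transcripts such as Myo10, Actn1 and Flna lie above 0. Vim, which is shorter than the median gene, and Srf and Myh7b, which are longer, lie below.

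Of 7 smooth muscle markers held (of 8), 6 are members, so their levels restate the values above. The other, Synpo2, was at 0.15, 0.09 and 0.18 TPM in rBMSCs and 0.16, 0.08 and 0.06 TPM in rEEOs, low and overlapping, and was not tested. The summed level of the 7 was 565 to 601 TPM in rBMSCs and 2.77 to 11.3 TPM in rEEOs, where Des, Myocd and Actg2 were at 0. Pericyte markers (4 of 5 held) summed to 102 to 115 TPM in rBMSCs and 2.38 to 7.19 TPM in rEEOs. Notch3 (mean 65.7 TPM) and Cspg4 (40.8 TPM) made up most of the rBMSCs sum, and Notch3 (mean 4.71 TPM) most of the rEEOs sum. Kcnj8 and Abcc9 were low in rBMSCs (means 2.76 and 0.62 TPM) and at 0 in rEEOs. Skeletal muscle (4 of 6 held), endothelial (3 of 5) and haematopoietic (4 of 6) markers summed to at most 1.45 TPM in every library. Of these, Myod1 of skeletal muscle had 14 to 19 counts in rBMSCs libraries and 0 in rEEOs (lower by edgeR, adjusted p = 0.0014). Tek of endothelium had 14 to 23 counts in rBMSCs and at most 1 in rEEOs (lower by edgeR, adjusted p = 0.000855). Both could be tested only through rBMSCs, and none of the other markers of these lists was tested. The part of contractile cells other than mesenchymal stem cells in the rBMSCs values was not tested, and in bulk samples fewer cells of a type and less RNA per cell cannot be told apart.

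Other genes of the actin pathway were read from 3 lists. Their counts stand against 30.2% of all genes tested that fell and 33.3% that rose. Of 23 genes tested for the Arp2/3 complex and nucleation, 11 fell, 6 rose and 6 were not called. Of the 11, 1 (Cap2) reached the minimum of counts in rBMSCs alone. Of the 6 that rose, 1 (Spire2) reached it in rEEOs alone. Arpc2, an Arp2/3 subunit, rose from 556 ± 15.3 TPM to 851 ± 165 TPM (0.89, adjusted p = 0.00432), and Evl, an actin polymerase adaptor, fell from 34.1 ± 2.12 TPM to 0.79 ± 0.312 TPM (-5.21, adjusted p = 1.52e-05). With any one rBMSCs library left out, 7 of these 23 were lower.

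The list of ezrin, radixin and microvillus genes had 15 of its 22 genes held, moesin not among them, and 11 were tested. Of these, 8 rose and 3 fell, against 33.3% and 30.2% of all genes tested. Of the 8, 5 (Eps8l1, Eps8l2, Cdhr2, Baiap2l2 and Prom1) had at most 5 counts in any rBMSCs library and could be tested only because they were high in rEEOs. The genes that reached the minimum of counts in both cell types were 3 higher (Ezr, Slc9a3r1 and Baiap2) and 3 lower (Rdx, Slc9a3r2 and Eps8). Ezr, the ezrin that ties microvillar actin to the membrane, was at 15.7, 16.3 and 18.4 TPM in rBMSCs and 970, 622 and 421 TPM in rEEOs (5.52, SE 0.28, adjusted p = 1.83e-05). Baiap2l2, a membrane-bending protein of microvilli, had no count in rBMSCs and was at 90.3, 131 and 143 TPM in rEEOs. Rdx, radixin, lay at the threshold (-0.81, SE 0.30, adjusted p = 0.0487). Its call was lost without any one library other than rEEOs replicate 1 (adjusted p = 0.103 to 0.142), with library size only (-0.42, adjusted p = 0.287), with the length trend removed (-0.49, adjusted p = 0.0695), and with DESeq2 size factors, both other filters and both limma fits (adjusted p = 0.0507 to 0.0557). Of 23 genes tested for focal adhesion adaptors and SRF targets, 18 fell and 2 rose, against 30.2% and 33.3% of all genes tested. The other 3 were not called. Of the 18, 1 (Fhl1, at most 5 counts in any rEEOs library) could be tested only because it was high in rBMSCs. Fhl1, a LIM protein of muscle, was at 333, 340 and 339 TPM in rBMSCs and at most 0.22 TPM in rEEOs (-11.56, SE 0.63, adjusted p = 2.37e-05). Pxn, paxillin, rose from 30.5 ± 1.20 TPM to 67.4 ± 36.1 TPM (1.32, adjusted p = 0.0032), and Tes, testin, from 6.15 ± 0.265 TPM to 33.4 ± 11.1 TPM (2.65, adjusted p = 3.12e-05). Without rEEOs replicate 1, 4 genes of this list passed as higher.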

How the data were processed

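RNA from 3 rEEOs and 3 rBMSCs libraries had been sequenced by the authors. Trim Galore, Bowtie2 2.2.5 and the build Rnor_6.0 are named in the submitters' processing notes, and RSEM in the study's methods. The table deposited by the authors holds, per gene and per library, an expected count (estimated by RSEM, not normalized, not whole for 7.3% to 8.4% of values), a TPM and an FPKM. FPKM is a constant multiple of TPM in each library (0.593 to 0.990) and was used only for this check. Relative transcript lengths were taken from the expected count over the TPM of a gene, relative to the median gene. The copy analysed here has 13728 rows, ends with 23 of 27 fields in its last line, and holds 81.3% to 82.7% of a library's TPM; other genes were not analysed here. Its columns with the authors' own comparison (fold changes, q-values) were not used.

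Expected counts were rounded. A gene needed 10 counts or more in 3 libraries or more, and the 10607 that had them were tested with edgeR 4.0.16 (TMM factors 0.866 to 0.885 in rBMSCs and 1.097 to 1.196 in rEEOs; glmQLFit, glmQLFTest) in R 4.3.3, with Benjamini-Hochberg adjustment. A gene with 0 counts in a cell type was given a bound against 3 counts in each library, and one with 1 to 3 counts a ratio with an exact Poisson 95% interval; both cover counting error only. Shares were compared with a two-sided exact permutation test. The tools were also run on a simulated set of 10483 genes, of which 198 had a shift of 3 on the log2 scale. Shifted genes found numbered 191 by edgeR, 197 by DESeq2 (version 1.42.0) and 191 by limma (version 3.58.1). Unshifted genes called numbered 9, 71 and 14, in the same order. The simulated set held far fewer changes than the 3529 genes higher and 3199 lower called in the measured libraries. Its figures are therefore no estimate of the error rates in the comparison reported. Gene IDs of all 73 members matched RefSeq. Promoters came from RefSeq GRCr8 and were not placed on the authors' build.

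Members and lists were chosen with earlier results of these data known. The rule for named members took the 3 most abundant of each class, the 8 strongest in each direction at 5 TPM or more, and the paralog sets. Named outside it, after their values were seen, were Myo1f, Myo1e, Myo19, Csrp2, Mylk, Myl4, Myl12b, Myh1, Myh2, Myh7b, Myh8, Smtn, Tmod2, Cfl2, Actr1b, Actr3b, Actr5, Actr6, Actr10, Pdlim3, Fscn3 and the genes named of the 3 pathway lists. The values of 1 member, which stays in the counts over members, and 1 further list are not reported here. Alternatives were the DESeq2 test, other scalings and filters, limma on log2(TPM + 1) and log2(TPM + 0.1), a test against a fold change of 2, an absolute log2 fold change above 1, each library left out, a replicate block and, chosen after seeing the data, removal of the length trend (lowess span 0.3). Same-numbered libraries did not pair: their deviations correlated at 0.13, 0.15 and -0.11. Python 3.11.15 with pandas 2.3.3, numpy 2.4.6, scipy 1.17.1 and matplotlib 3.10.9 was used.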

Additional observations from a re-analysis of the deposited data

How the results depend on the processing

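Of the 67 tested members, 44 kept their direction and their side of the threshold in every setting tried, and of all their values under alternatives 967 were unchanged in this sense, 58 lost the call, 20 gained it and 16 changed sign. Each value that changed sign belongs to a member not called in the fit reported. With library size only, Actg1 had a log2 fold change of 0.0046, Actr1b 0.14, Actr2 0.32 and Srf 0.021. With the length trend removed, Srf had 0.055 and Tmod3 -0.094. By limma on log2(TPM + 0.1) and on log2(TPM + 1), Pfn2 had -0.12 and -0.12 and Tmod3 -0.15 and -0.14. Actr2 had 0.11 without rEEOs replicate 2 and 0.05 without rEEOs replicate 3, with values down to -0.38 without rEEOs replicate 1. Pfn2 ranged from -0.015 without rEEOs replicate 3 to 0.38 without rEEOs replicate 1. Myh9l1 had -0.21, -0.21 and -0.24 without rBMSCs replicate 1, rBMSCs replicate 3 and rEEOs replicate 3, and 14.18 without rBMSCs replicate 2, the one rBMSCs library with counts. The cause was not tested.

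By limma on log2(TPM + 0.1) and on log2(TPM + 1), members differentially expressed as higher numbered 4 and 3, members past the adjusted p as higher 6 and 6, and Arp2/3 genes higher 3 and 3; both fits take only genes with at least 1 TPM in 3 libraries. Over all genes, limma on log2(TPM + 1) gave 1121 higher, and an absolute log2 fold change above 1 gave 2663 higher and 2287 lower. With library size only, 6 Arp2/3 genes were lower. In shares of expected counts, which are not per length, the difference of Tpm3 was 22.7 percentage points against 19.0 and that of Myh10 -81.1 against -83.5. With each library left out in turn, members differentially expressed ranged from 5 to 6 higher and 34 to 36 lower, members past the adjusted p from 6 to 11 higher and 42 to 49 lower, all genes from 1698 to 1823 higher and 1317 to 1665 lower, Arp2/3 genes from 7 to 13 lower and focal adhesion genes from 2 to 4 higher.

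With a replicate block, 5 members were differentially expressed as higher and 34 as lower, 8 and 45 passed the adjusted p, and all genes gave 1710 and 1521; the calls of 3 members changed (Actr5, Myh7b and Tpm3). Same-numbered libraries share only a number, so this is no sign of a weaker effect. Depth limits members near 3 counts per library, and Myh9 could not be described.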
